A study of Mus musculus with 2 samples.

Results

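Mitochondrial ribosomal protein genes were examined in Smad3-/- and WT embryonic stem cells (ESCs), the pluripotent cells of the early mouse embryo. Every probe set whose single platform symbol begins with Mrpl or Mrps and a number was taken, without pseudogenes, which gave 73 genes with 556 probe sets among 16358 genes with 209279 probe sets. Of these, 44 were Mrpl genes (331 probe sets) and 29 were Mrps genes (225 probe sets). RNA of Smad3 knockout ESCs and of wild-type ESCs, both labelled as of C57BL/6 background, was hybridized to 1 Affymetrix mouse exon array for each genotype. Both were grown with LIF and 2i, the Gsk3 inhibitor CHIR99021 and the Mek inhibitor PD0325901. The methods describe passaging off feeder cells onto gelatin for feeder-free lines, and do not say which culture went to the arrays. The sources used here do not name the deleted part of Smad3 or the number of knockout clones. An exon array reads a gene through several probe sets that each cover a piece of the transcript. The values are log2 signal, the value of a gene is the median over its probe sets, and a difference is the median over the probe sets of Smad3-/- minus WT. With 1 array for each genotype there was no replicate and no test, and the precision is limited by the number of arrays.

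Mitochondria keep their own ribosome, the mitoribosome, which translates the few mRNAs of the mitochondrial genome into core subunits of the respiratory chain and ATP synthase. Its rRNAs come from mitochondrial DNA, whereas all its proteins are encoded in the nucleus, made in the cytosol and imported. The large subunit joins amino acids into the chain and carries its exit, and the small subunit binds the mRNA and decodes it. About the symbols it is known that the proteins of Mrps18a and Mrps30 sit in the large subunit and that the product of Mrps36 is a component of the 2-oxoglutarate dehydrogenase complex.

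All 10 measured ESC markers, among them Pou5f1, Sox2 and Nanog, reached the expression floor of 8.64, the median over all genes of the higher of the 2 gene values, and their differences lay between 0.0 and 0.23. Of 8 lineage markers 0 reached it. Of 8 fibroblast (feeder cell) markers 2 did, Col1a1 and the matrix gene Fn1, and the 8 differences ran from -0.225 to 0.99. The highest was that of the receptor gene Pdgfrb. It read 8.06 in the array labelled Smad3-/- and 7.255 in the WT array, both below the floor. The collagen genes Col1a1 (-0.22), Col1a2 (-0.155) and Col3a1 (-0.225) were lower. Thy1 was at 0.0, and Fn1 (0.115), S100a4 (0.24) and Postn (0.21) were higher. The part of feeder cells in the values below was not tested. Smad3 itself had differences from -2.5 to 1.84 over its 16 probe sets, with a median of 0.375 and 2 probe sets lower, so that the array is called by its label. The lowest, probe set 4594059, read 6.79 in the array labelled Smad3-/- and 9.29 in the WT array. Lefty1, a known target of Nodal and Smad signaling, was lower at all 7 probe sets. It read 8.35 in the array labelled Smad3-/- and 9.4 in the WT array. Rif1, of telomere and replication control, had a median difference of 0.025 over 40 probe sets, of which 22 were higher and 17 lower. Its probe sets ran from -0.4 to 6.7. The highest, 5037048, read 10.66 in the array labelled Smad3-/- and 3.96 in the WT array. The median signal of all 229581 probe sets was 8.89 in the array labelled Smad3-/- and 8.8 in the WT array.

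Mrpl20 was the only mitochondrial ribosomal protein gene past 1.5-fold by its median. It encodes the counterpart of bacterial L20, a protein that in bacteria binds the 23S rRNA early in the assembly of the large subunit. Its median difference was -0.7 (1.62-fold lower in the array labelled Smad3-/-), and 6 of its 7 probe sets were lower there. Among the bright probe sets, 5606548 read 10.93 in the array labelled Smad3-/- and 11.82 in the WT array, and the difference of 4791939 was -0.7 from 10.7 in the WT array. The largest differences were those of 2 dim probe sets. Probe set 5169130 read 5.93 in the array labelled Smad3-/- against 7.31 in WT (-1.38), and 4454752 read 4.22 in the array labelled Smad3-/- against 5.18 in WT (-0.96). These 4 probe sets were past 1.5-fold, and the other 3 were not. For those 3 the array labelled Smad3-/- had 10.12, 10.08 and 10.16, and the WT array had 10.45, 10.34 and 10.06. The probe sets of Mrpl20 thus disagreed on the size of the difference, with an SD over probe sets of 0.5. The medians of the signals, 10.08 in the array labelled Smad3-/- and 10.34 in the WT array, differed by less than the median of the differences because both came from probe set 4385855.

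**Figure D1:**
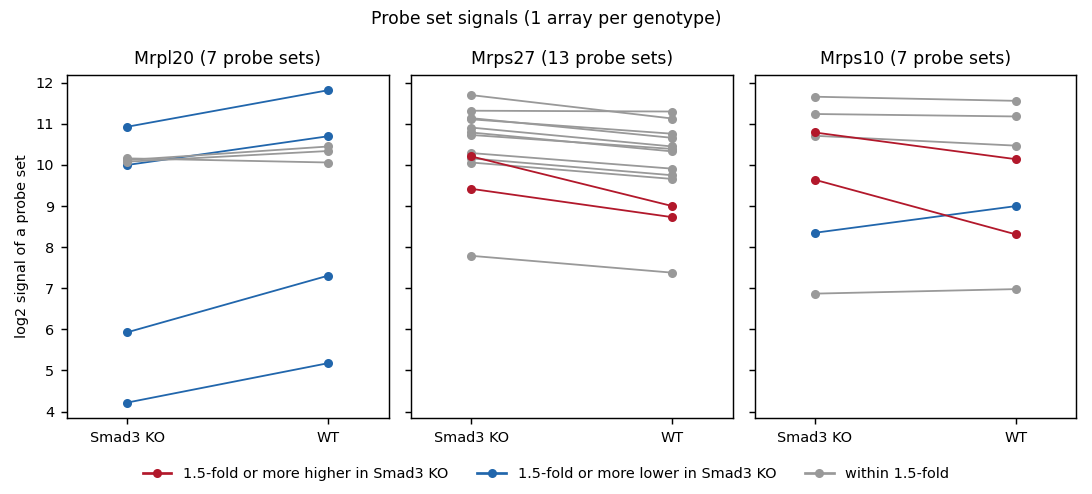
Log2 signal of each probe set (y axis) of Mrpl20, Mrps27 and Mrps10 in the array labelled Smad3-/- (left) and the WT array (right), where a line joins the values of 1 probe set and its colour marks a difference past 1.5-fold. For Mrpl20 4 of 7 lines are past 1.5-fold lower in the array labelled Smad3-/-, for Mrps27 all 13 are higher, and for Mrps10 2 are past 1.5-fold higher and 1 past it lower.

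The call of Mrpl20 rested in part on dim probe sets. The 5 probe sets that reached 8.97, the median over all probe sets of the higher of the 2 values, had a median difference of -0.33, and the gene also had -0.33 once 50 was added to every linear signal as a pseudocount. The brightest probe set alone gave -0.89 and the mean over probe sets -0.631. By the median, 60 of 16358 genes had a lower difference than Mrpl20, and 7 of the 8185 genes that reached the floor. Of all genes 0.685% were past 1.5-fold lower, and of genes that reached the floor 0.195%, beside 1 of 73 mitochondrial ribosomal protein genes (1.37%). Higher by 1.5-fold or more were 0 of the 73, beside 1.14% of all genes and 0.88% of those that reached the floor.

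The remaining 72 genes lay between -0.24 and 0.41. The next lowest after Mrpl20 was Mrpl27, for the counterpart of bacterial L27 at the peptidyl transferase centre, with 3.55 in the array labelled Smad3-/- and 3.79 in the WT array from a single dim probe set. Of the 16 genes below 0, 12 were Mrpl genes, and Mrpl39 and Mrps30 were at 0.0. At least 75% of the probe sets went the way of the gene in 34 higher and 4 lower genes of the 71 at the floor (47.9% and 5.63%). Of 4602 other genes at the floor with 3 to 14 probe sets, 39.4% were higher and 9.5% lower by this criterion. The 4 lower ones were Mrpl20, Mrps6, Mrpl18 and Mrpl55. Mrps6 (-0.115, small subunit platform) read 11.3 in the array labelled Smad3-/- and 11.415 in the WT array, and its brightest probe set gave 0.04. Mrpl18 (-0.105), whose bacterial counterpart binds 5S rRNA, was lower at 8 of 10 probe sets, of which 1 was past 1.5-fold with -0.61. Mrpl55 (-0.04, bacterial L31) was lower at 5 of 6 probe sets, and its brightest gave 0.04.

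The 4 highest differences were of Mrps genes. Mrps27, a pentatricopeptide repeat protein that binds mitochondrial rRNA and is found in mitoribosomes but not in bacteria, had the highest difference, 0.41 (1.33-fold). Its median signal was 10.73 in the array labelled Smad3-/- and 10.33 in the WT array. All 13 of its probe sets were higher, from 0.02 to 1.21, and 11 of the 13 lay within 1.5-fold. Its lowest difference was that of probe set 4379445, with 11.32 in the array labelled Smad3-/- and 11.3 in the WT array. Its highest was that of 4435636, with 10.21 in the array labelled Smad3-/- and 9.0 in the WT array. Mrps28, related to bacterial S1, followed with 0.35. Its 4 probe sets read 9.5, 9.38, 10.3 and 7.87 in the array labelled Smad3-/-, against 9.23, 9.06, 9.92 and 7.32 in the WT array. Each of them was higher in the array labelled Smad3-/-. Mrps18a (0.34), 1 of the 3 mammalian relatives of bacterial S18, was higher at 7 of 8 probe sets, and Mrps34 (0.3), needed for the stability of the small subunit, at 3 of 4. The closest Mrpl genes with 75% of their probe sets higher were Mrpl23 (0.275, at the polypeptide exit, with all 10 probe sets higher), Mrpl13 (0.25), Mrpl38 (0.245, central protuberance, 11 of 12 probe sets higher), and Mrpl54 and Mrpl46 with 0.24 each. Mrpl28 had 0.28 with 4 of 6 probe sets higher. In all, 8 genes were higher at every probe set, namely Mrpl15, Mrpl23, Mrpl45, Mrpl49, Mrpl50, Mrps18b, Mrps27 and Mrps28. These 8 were 11.3% of the 71 at the floor, and 11.4% of the 4602 other genes were higher at every probe set.

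**Figure D2:**
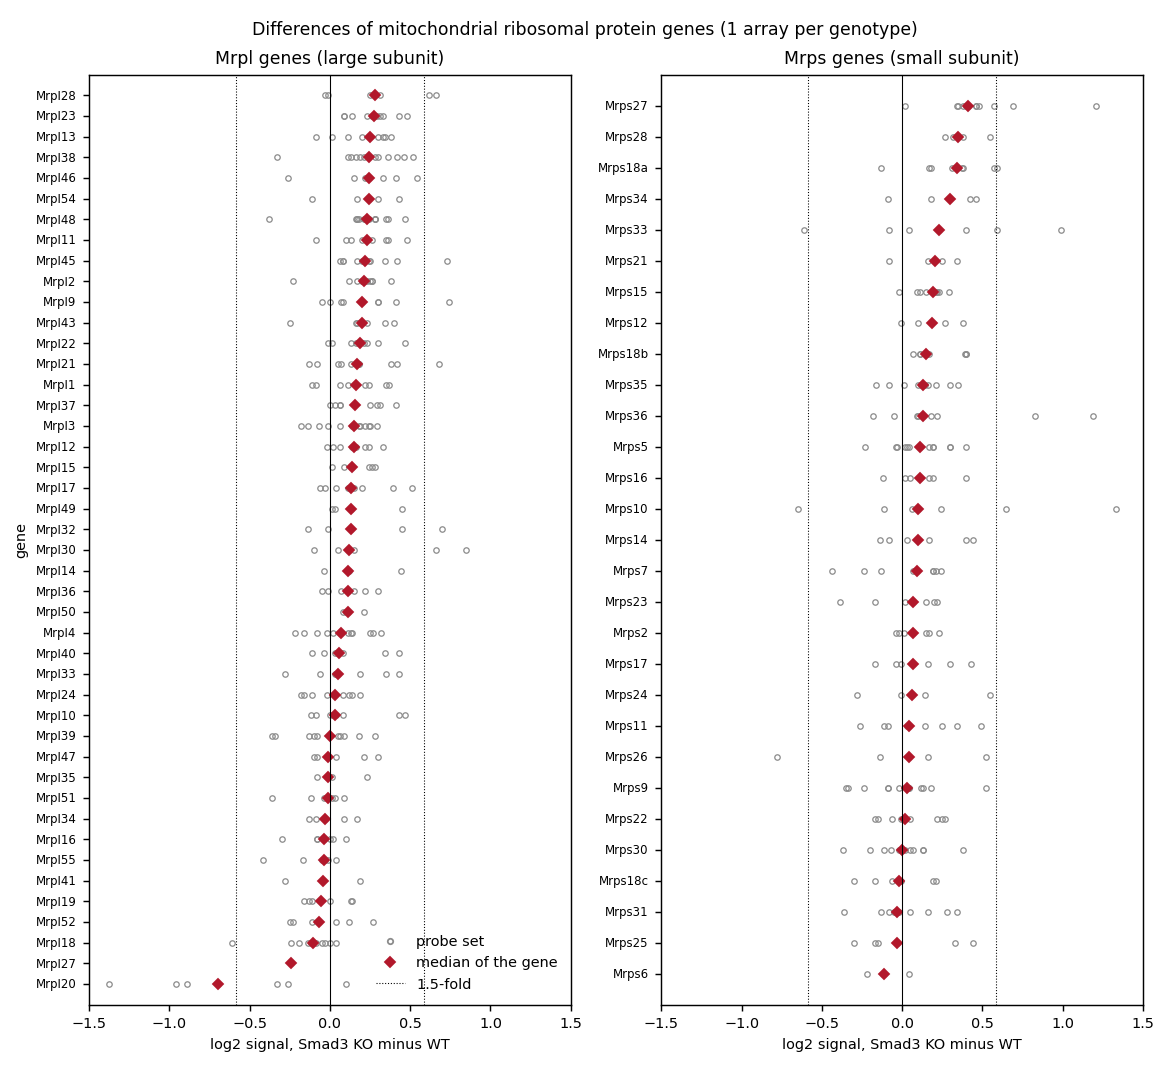
Log2 difference (Smad3-/- minus WT, x axis) of every probe set (circles) and the median of every gene (diamonds) for the 44 Mrpl genes (left) and the 29 Mrps genes (right), in order of the median, with dotted lines at 1.5-fold. Only Mrpl20, at -0.7, has its median outside the dotted lines, and the other medians run from -0.24 to 0.41.

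The promoters are shown for Mrpl20, the gene outside 1.5-fold, and for Mrps27 and Mrps18a, 2 of the 3 highest (Mrps28 had no entry). They are the 300 bases from 250 before to 50 after the RefSeq gene start, on the plus strand of GRCm38.p6, at chr4:155802628-155802927 for Mrpl20, chr13:99344536-99344835 for Mrps27 and chr17:46110754-46111053 for Mrps18a. Capitals mark, on either strand, CCGGAAG (bound by GABPA and other ETS factors), AAGATGG (YY1), GCGC, any base and TGCGC (NRF1) and CAGAC (the Smad box), none of which contains another.
Mrpl20: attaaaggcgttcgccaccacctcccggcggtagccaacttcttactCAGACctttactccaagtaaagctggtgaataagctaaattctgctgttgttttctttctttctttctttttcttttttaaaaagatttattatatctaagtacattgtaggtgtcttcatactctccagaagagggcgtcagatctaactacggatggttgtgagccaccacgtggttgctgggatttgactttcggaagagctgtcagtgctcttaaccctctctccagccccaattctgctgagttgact
Mrps27: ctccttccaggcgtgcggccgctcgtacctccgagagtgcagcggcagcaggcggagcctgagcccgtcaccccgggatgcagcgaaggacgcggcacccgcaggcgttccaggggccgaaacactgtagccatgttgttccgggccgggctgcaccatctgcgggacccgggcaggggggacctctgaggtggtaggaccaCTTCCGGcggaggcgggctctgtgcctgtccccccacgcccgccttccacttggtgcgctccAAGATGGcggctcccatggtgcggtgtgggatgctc
Mrps18a: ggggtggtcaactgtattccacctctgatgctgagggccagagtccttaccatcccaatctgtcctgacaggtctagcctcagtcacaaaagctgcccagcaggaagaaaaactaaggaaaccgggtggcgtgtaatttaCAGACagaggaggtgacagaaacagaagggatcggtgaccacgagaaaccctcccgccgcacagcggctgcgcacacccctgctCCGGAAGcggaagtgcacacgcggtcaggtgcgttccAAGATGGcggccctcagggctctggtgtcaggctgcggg
The Mrpl20 window held a Smad box, which was in 53.2% of all windows, and no match to the other motifs. The Mrps27 and Mrps18a windows each held 1 ETS and 1 YY1 match, and that of Mrps18a also a Smad box. Repeated sequence in the windows was not set apart. Which start the cells used was not measured.

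These letters were then counted over all windows, as a description of sequence and not of binding. Windows existed for 64 of the 73 genes and for 27025 genes in all, measured on the arrays or not. Shares among genes that reached the floor were not counted, so the members are not set beside other expressed genes here. CCGGAAG was found in 23 of 64 (35.9%) and in 9.93% of all, the NRF1 motif in 11 (17.2%) and 5.19%, and AAGATGG in 12 (18.8%) and 7.28%. At least 1 of the 3 was in 38 of 64 (59.4%) and in 20.0% of all. The Smad box, 5 letters long, was in 37 of 64 (57.8%) and in 53.2% of all. The 37 genes with a Smad box had a median difference of 0.07 and the 27 without one 0.13, and the ranges overlapped (-0.7 to 0.34 with a Smad box, -0.04 to 0.41 without). For CCGGAAG the medians were 0.13 in the 23 genes with a match and 0.1 in the 41 without. For the NRF1 motif they were 0.13 in 11 genes and 0.09 in 53, and for AAGATGG 0.12 in 12 genes and 0.1 in 52.

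Single probe sets strayed further than the genes they belong to. Of the 556 probe sets 17 were past 1.5-fold higher (3.06%, against 5.95% of all probe sets with 1 symbol) and 8 past 1.5-fold lower (1.44%, against 3.65%). The 17 belonged to 11 genes and the 8 to 5 genes, Mrpl20 with 4 and Mrpl18, Mrps10, Mrps26 and Mrps33 with 1 each. Mrps10, for the counterpart of bacterial S10 in the head of the small subunit, had the highest probe set, 5408556, with 9.64 in the array labelled Smad3-/- and 8.31 in the WT array. Another probe set of Mrps10, 4947496, read 8.35 in the array labelled Smad3-/- and 9.0 in the WT array, and its gene median was 0.1. Mrps33, also of the head, ran from -0.61 to 0.99 with a median of 0.23 and -0.08 at its brightest probe set. Mrps26 had a probe set at -0.78 (7.75 in the array labelled Smad3-/- and 8.53 in the WT array) and a median of 0.04, which was -0.034 after the signal-dependent trend was removed. Mrps36 had 2 probe sets past 1.5-fold, with 0.83 and 1.19, among 9 with a median of 0.13, and Mrpl30 had 0.66 and 0.85 among 7 with a median of 0.12. Of the 25 probe sets past 1.5-fold either way, 13 had a mean signal below 8.84, the median of all probe sets, whereas 87 of all 556 did. The shares of all probe sets given above were not limited to probe sets of like signal. The median SD over probe sets was 0.19 for the 72 genes with more than 1 probe set, larger than most of the gene differences.

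By their medians the genes of both subunits leaned to higher values in the array labelled Smad3-/-, to an extent close to that of other expressed genes. The median of the 73 differences was 0.11 (1.08-fold), 55 were above 0 and 16 below. All 16358 genes had a median of 0.035, with 57.5% above 0. After removal of a trend with signal, 65.8% of the 73 and 46.7% of all genes were above 0, and after quantile normalization 65.8% and 44.7%. Of the 73, 71 reached the floor, and Mrpl27 and Mrpl41 did not. These 71 had a median of 0.11 with 77.5% above 0, and the other 8114 genes that reached the floor had 0.075 with 72.9% above 0. After removal of the signal-dependent trend the values were 0.056 and 67.6% for the 71 genes, and 0.02 and 56.8% for the 8114. At the brightest probe set they were 0.05 and 60.6% for the 71 genes, and 0.0 and 49.2% for the 8114. The middle of the members ran from 0.02 (25th percentile) to 0.19 (75th), against 0.0 and 0.16 in genes that reached the floor. Of the 71 genes not at 0.0, 28 changed sign under at least 1 of 5 other settings (mean over probe sets, brightest probe set, pseudocount, trend removal, quantile normalization), the largest of them Mrps33. The remaining 43 were 35 higher and 8 lower genes.

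**Figure D3:**
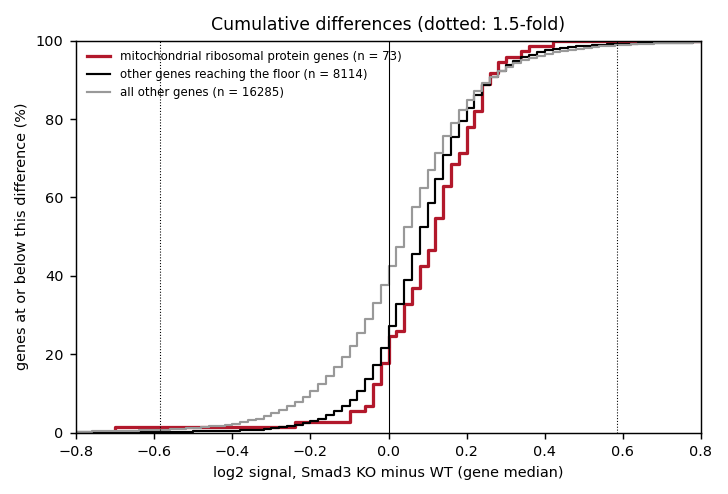
Share of genes (y axis, %) at or below a given log2 difference (Smad3-/- minus WT, x axis) for the 73 mitochondrial ribosomal protein genes, the 8114 other genes that reached the floor and all 16285 other genes. Over most of its height the curve of the members lies slightly right of that of the other genes that reached the floor, with medians of 0.11 and 0.075, and its step at the far left is Mrpl20.

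The medians of the subunits lay 0.025 apart. The median of Mrpl was above that of Mrps under every alternative setting, all on the same 2 arrays. By the share of genes above 0 the order was the reverse, with 70.5% of Mrpl and 82.8% of Mrps genes. The 44 Mrpl genes had a median of 0.125 (31 above 0, 12 below) and the 29 Mrps genes 0.1 (24 above 0, 4 below). Mrps30 was higher at 6 and lower at 5 of its 13 probe sets. Counting Mrps18a (0.34) and Mrps30 (0.0) with the large subunit, where their proteins sit, left the medians at 0.125 and 0.1. With Mrps36 left out as well, the small subunit had 26 genes and a median of 0.095. By the current protein names, the 46 genes with a bacterial counterpart had a median of 0.105 and ran from -0.7 to 0.35, and the 26 named as specific to mitochondria had 0.13 and ran from -0.07 to 0.41. With Mrps18a and Mrps18b, named as specific but related to bacterial S18, in the first class, an alternative chosen after the data were seen, the medians were 0.11 and 0.12. By place in the ribosome, the 3 genes of the L7/L12 stalk, which recruits translation factors, had 0.03 (Mrpl10, but -0.12 at its brightest probe set), 0.23 (Mrpl11) and 0.15 (Mrpl12). The 6 genes of the polypeptide exit (Mrpl17, Mrpl22, Mrpl23, Mrpl24, Mrpl45 and Mrpl47) had a median of 0.158, with 1 below 0. The 7 genes of the central protuberance (Mrpl18, Mrpl27, Mrpl38, Mrpl40, Mrpl46, Mrpl48 and Mrpl55), which faces the head of the small subunit, had 0.055 and were divided, with Mrpl38 (0.245), Mrpl46 (0.24) and Mrpl48 (0.23) above 0 and 3 below. Of those 3, Mrpl27 (-0.24) had a single dim probe set below the floor, and the median of this site leaned on it. The 6 probe sets that Mrpl27 shares with EG622268 had a median difference of 0.09. The 8 genes of the small subunit head had 0.095, with Mrps31 (-0.03) the only one below 0.

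Of the 5 measured genes on each side of Mrpl20 in the RefSeq order, 6 of 10 were above 0 and 1 was past 1.5-fold. Of all genes, 57.5% were above 0, 1.14% were past 1.5-fold higher and 0.685% past 1.5-fold lower. Before Mrpl20, Vwa1, for an extracellular matrix protein, had -0.235 below the floor, and Atad3a, for an ATPase of the inner mitochondrial membrane, had 0.16. Ccnl2, for a cyclin, the next measured gene on the other side, had 0.035 over 28 probe sets. A single probe set of Ccnl2, 4829529, read 9.1 in the array labelled Smad3-/- and 3.96 in the WT array, a difference of 5.14, while the other 27 ran from -0.65 to 0.98 with a median of 0.02. The measured gene after it, Mxra8, for a cell surface adhesion protein, was the 1 neighbour past 1.5-fold. It read 8.165 in the array labelled Smad3-/- and 8.91 in the WT array, with a median difference of -0.655 and 11 of 12 probe sets lower. Its probe sets ran from -1.37 to 0.11, and those of Mrpl20 from -1.38, at a dim probe set, to 0.1. Beyond Mxra8, Dvl1, of Wnt signaling, had 0.06, Tas1r3, below the floor, had -0.105, and Cptp, a lipid transfer protein gene, had -0.285. Genes of the order that no probe set of 1 symbol named, among them Aurkaip1, for another mitoribosomal protein, were not analysed here.

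**Figure D4:**
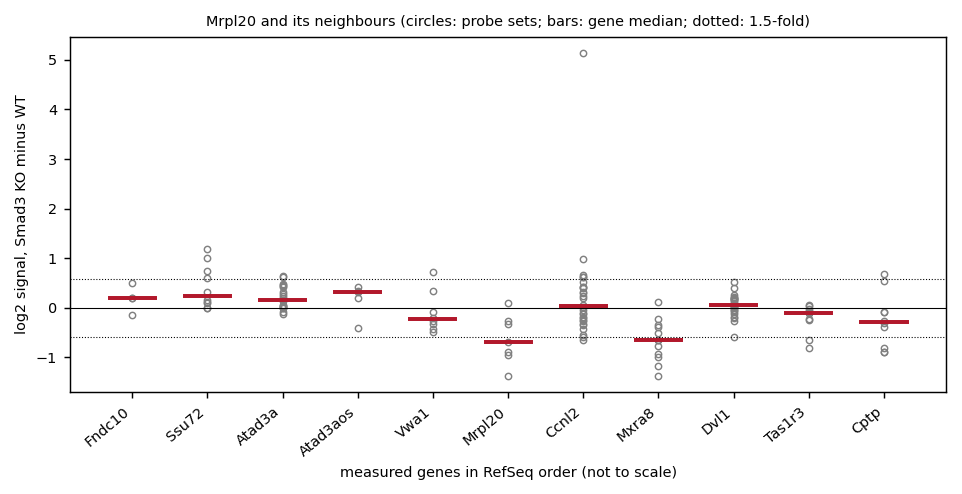
Log2 difference (Smad3-/- minus WT, y axis) of the probe sets (circles) and the median (bars) of Mrpl20 and the 5 measured genes on each side in RefSeq order (x axis, not to scale), with dotted lines at 1.5-fold. The medians of Mrpl20 (-0.7) and Mxra8 (-0.655) lie below the lower line, and Ccnl2 between them has a median of 0.035 and 1 probe set at 5.14.

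Among genes that serve the mitoribosome 0 passed 1.5-fold, beside 1.14% of all genes higher and 0.685% lower, and their shares above 0 stand beside 57.5% of all genes and 72.9% of genes at the floor. The 6 measured genes of a list of mitoribosomal proteins without an Mrpl or Mrps symbol on the array ran from 0.0 (Ptcd3) to 0.25 (Ict1, now Mrpl58, a peptidyl-tRNA hydrolase built into the large subunit), with Dap3, of the small subunit head, at 0.11. Mrpl42, under an older symbol on the array and not in the list, had -0.06. Of 20 assembly factors 18 (90.0%) were above 0, with a median of 0.135. The highest was the rRNA methyltransferase gene Nsun4 (0.305), with 9.2 in the array labelled Smad3-/- and 8.82 in the WT array, followed by the GTPase gene Mtg2 (0.24) and the pseudouridine synthase gene Trub2 (0.24). Of 16 translation factors 14 (87.5%) were above 0, with a median of 0.12. Mtif3, the initiation factor that acts on the small subunit, came closest to 1.5-fold of the genes in these lists, with 10.325 in the array labelled Smad3-/- and 9.63 in the WT array and a median difference of 0.55 (1.46-fold). The release factor gene Mtrf1l, below the floor, had 0.38 and the elongation factor gene Gfm1 0.225. The 18 genes listed with the mitochondrial aminoacyl-tRNA synthetases had a median of 0.087, with Wars2 for tryptophan, below the floor, highest at 0.4. The list also held Qrsl1, for an amidotransferase subunit, and Gars and Kars, whose products serve the cytosol too. Among 14 regulators of mitochondrial transcription and biogenesis the median was 0.075, Tfb2m, of the mitochondrial transcription machinery, had 0.3 and Myc, below the floor, 0.355, while Nrf1 (0.08), Gabpa (0.07) and Yy1 (-0.01), whose motifs were searched in the promoters, stayed within 0.1 of 0.

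Of the complexes that hold the products of mitochondrial translation, the nuclear subunits of complex I had a median of 0.085 (25 of 34 above 0), of complex III 0.11 (9 of 9), of complex IV 0.03 (9 of 15) and of complex V 0.077 (13 of 16). Complex II, which holds no such product, had 0.07 (3 of 4). The largest of their differences were Cox8b (0.34), a muscle form below the floor, Ndufa6 (0.305) and Uqcrh (0.295) above 0, and Cox6a2 (-0.29), another muscle form below the floor, under it. The mitochondrial ribosomal protein genes had a median of 0.11 with 75.3% above 0, and the 60 cytosolic ones, their counterparts outside mitochondria, had 0.105 with 81.7%. The cytosolic ones ran from -0.38 (Rpl21, 1 probe set) to 0.34 (Rpl37, and Rps13 with 1 probe set below the floor). Of the 60, 0 were past 1.5-fold.

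**Figure D5:**
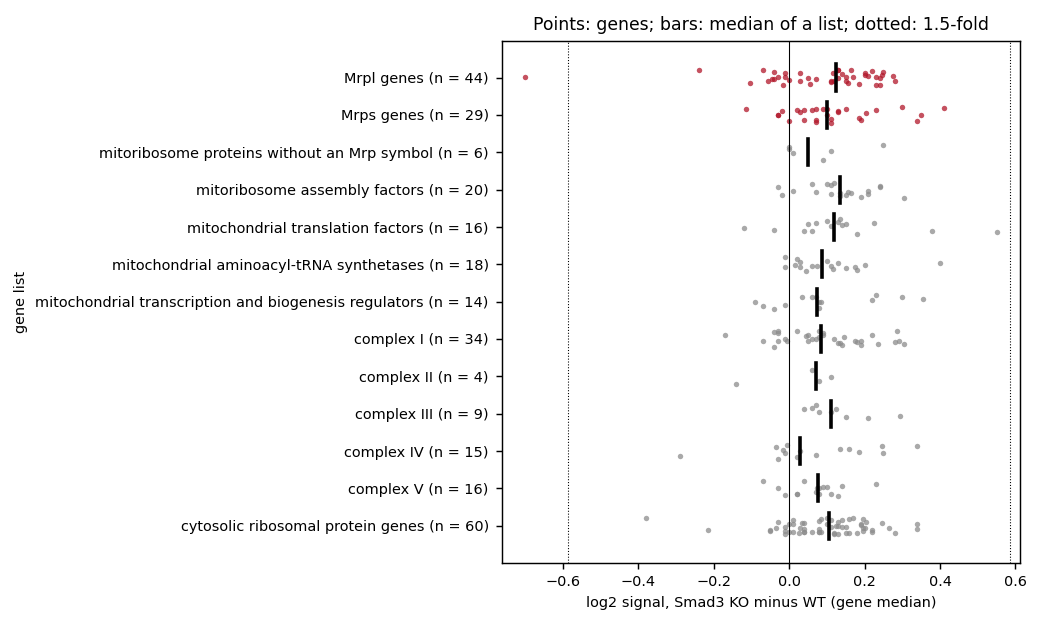
Log2 difference (Smad3-/- minus WT, x axis) of each gene (points) and the median of each list (bars) for Mrpl and Mrps genes and 11 other lists (y axis, n in the labels), with dotted lines at 1.5-fold. All list medians lie between 0.03 and 0.135, and Mrpl20 is the only point outside the dotted lines.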

How the data were processed

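The deposited values are log2 signal of 2 arrays, 1 of each genotype. The submitters' processing notes list Affymetrix Expression Console and mm8. Partek, Genespring and a 1.5-fold threshold are in the methods. How background was corrected and arrays were normalized is not stated in those sources, and could shift all differences together. Base 2 was read from the highest value, 31433 on a linear scale. The platform annotation gave 1 symbol to 209279 probe sets, several to 4446 and none here to 15856, and older symbols were updated through RefSeq (GRCm38.p6), which also gave the promoters and the gene order and is not the build of the files.

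Named genes were the members past 1.5-fold, the 8 largest differences each way among members at the floor with 3 or more probe sets and 75% of them one way, the holders of the 5 most extreme probe sets each way, Mrpl20, its 5 neighbours on each side, Mrps30, Mrps18a and up to 4 genes per list. Others were chosen after their values were seen, as were the ribosome sites and the promoters shown. The members and lists were chosen with earlier results of these data known. Alternatives were quantile normalization, centring, removal of a loess trend (fraction 0.3), filters on dim genes or probe sets, a pseudocount of 50, a 2-fold threshold, and gene values from the mean of the probe sets or the brightest of them. Gene values from the median, the mean and the brightest probe set, trend removal and quantile normalization were first tested on simulated data. The other steps were not tested in this way. The simulated gene differences were 2-fold, larger than that of any member, so the recovery of small differences was not tested. Trend removal and quantile normalization were tested on shifts without noise. The software was statsmodels 0.14.6, matplotlib 3.10.9, pandas 2.3.3 and numpy 2.4.6 under Python 3.11.15.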

Additional observations from a re-analysis of the deposited data

How the results depend on the processing

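With no replicates, a value or count was taken as moved where it changed by over 1.5 times or crossed 1.5-fold, which held for 20 of 66 values. Of the medians and the values of Mrpl20, 0 changed sign, and the counts among the 66 could not. The median of all members, 0.11 as deposited, was 0.053 after quantile normalization, 0.056 after trend removal and 0.05 at the brightest probe set. That of the Mrpl genes, 0.125 as deposited, was 0.054, 0.056 and 0.05 under the same settings. That of the Mrps genes, 0.1 as deposited, was 0.039, 0.041 and 0.03, and 0.065 with the median of all genes set to 0. The count of 1 member past 1.5-fold lower became 0 with a 2-fold threshold, with dim probe sets left out and with the pseudocount. Mrpl20 had -0.33 under each of the last 2, and otherwise ran from -0.89 to -0.631. The 17 probe sets past 1.5-fold higher became 3 at 2-fold and 11 without dim probe sets, and the 8 lower became 1, 3 and, with the pseudocount, 4. A stricter threshold and fewer probe sets lower these counts by construction, and the pseudocount draws dim differences toward 0. For the medians the cause was not tested. No paired analysis was possible because there is a single array of either genotype.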

Other observations

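Several probe sets of mitochondrial ribosomal protein genes lay outside the choice of members. Mrpl53 shared all 10 of its probe sets with Ccdc142, and these read a median of 8.065 in the array labelled Smad3-/- and 7.905 in the WT array, with a median difference of 0.095 and a range from -0.33 to 1.03. For Mrpl27, 6 probe sets were shared with EG622268 and read 10.54 in the array labelled Smad3-/- and 10.485 in the WT array, with a median difference of 0.09, whereas the 1 probe set of its own was dim (3.55 in the array labelled Smad3-/- and 3.79 in the WT array) and had -0.24. The 2 probe sets shared by Mrps6 and Slc5a3 had a median difference of -0.04. Mrpl42, listed under the older symbol D10Ertd322e, had 9 probe sets with 12.61 in the array labelled Smad3-/- and 12.45 in the WT array and a median difference of -0.06, and Mrpl57, listed as Mrp63, had 5 probe sets with a median difference of 0.0.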
